A study of Mus musculus with 6 samples.

Results

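The immediate early and dissociation response genes are Fos, Fosb, Fosl1, Jun, Junb, Egr1, Atf3, Ier2, Ier3 and Dusp1, whose messages build up quickly when cells meet a growth factor, are wounded or are released from a tissue by enzymes. The 10 genes were taken by name from a list compiled for stress of cell preparation, and all 10 were found among the 22310 genes of the deposited table. They were compared between metastasis-initiating cells (MICs) and their counterparts (nonMICs) by same-numbered pair, to see whether the handling that precedes sorting had marked 1 population more than the other.

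Both populations came from spontaneous mammary tumors of MMTV-PyMT mice on the FVB/N background, between about 12 and 18 weeks of age, in which the mouse mammary tumor virus promoter drives the polyoma middle T oncogene in mammary epithelium. The labels give the genotype of every sample as WT beside the MMTV-PyMT name. Tumors were minced and digested with Liberase enzymes for 1 h, and the cells were plated overnight in DMEM/F12 with 2% FBS, insulin at 10 µg/ml, hEGF at 20 ng/ml and antibiotics. The next day MICs were sorted as Lin−CD24+CD90+ and nonMICs as Lin−CD24+CD90− straight into lysis buffer, Lin being the markers Ter119, CD31 and CD45 of red, endothelial and white blood cells. Stranded mRNA libraries were sequenced as paired reads of 75 bases, 3 per population, numbered 1 to 3 in each. The study counts the 3 replicates of this comparison as separate experiments or tumors. The labels do not say whether libraries with the same number share an animal or how many tumors each holds, and p-values measure the spread between these samples. No library from unsorted cells or undigested tissue was used here, so every value is a level after digestion, a night in EGF and sorting.

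Values are normalized read counts, scaled so that every library sums to 35000000. The reads recovered from them numbered 32458499 for replicate 1, 31467281 for replicate 2 and 51759769 for replicate 3 of the MICs. The nonMIC libraries held 33069114, 33126717 and 49904738 reads in the same order. Differences are given as MIC minus nonMIC on the log2(value + 1) scale, where a negative number means a lower level in MICs.

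Immediate early genes need no new protein to be transcribed. Growth factor receptors such as that of EGF act through the ERK kinases on the serum response factor and its partners, while stress kinases and cAMP act through ATF and CREB factors, and the messages decay fast once the stimulus ends. FOS and JUN family proteins pair to form AP-1, EGR1 is a zinc finger factor, ATF3 is a stress factor of the ATF and CREB family, and DUSP1 switches off the MAP kinases that induced it.

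The libraries had the profile of mammary tumor epithelium. Krt18, a luminal keratin, was the most abundant of 6 epithelial markers, at 259924, 97244 and 219800 in MIC replicates 1, 2 and 3 and at 323545, 116432 and 214660 in nonMIC replicates 1, 2 and 3. Thy1, which encodes the CD90 of the gate, was 1509, 301 and 755 in MICs and 16.9, 21.1 and 12.6 in nonMICs. Its log2 fold change of 5.32 (SE 0.62) had an adjusted p of 0.816 in limma and of 5.31e-05 in limma with the replicate number as a block, or 0.453 with the block and without pair 3. Cd24a, which both gates share, had a log2 fold change of -0.01 (SE 0.26), or -0.38 with the block and a trend in GC content and message length removed. Of 8 leukocyte markers 6 were in the table. They summed to 204, 1991 and 397 in MICs and to 224, 1201 and 463 in nonMICs. Lyz2 had the highest mean of these over the 6 libraries, and Ptprc, Adgre1 and Itgam were at 0 in at least 1 library.

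The members were abundant messages in every library. Per kb of exon, Ier3 stood highest at 15415, followed by Atf3 at 5602, Fos at 5481, Dusp1 at 3193, Junb at 2747, Jun at 2296, Fosb at 2021, Ier2 at 1574, Egr1 at 1005 and Fosl1 at 951 (means over 6 libraries). The lowest of them, Fosl1, was above 91.3% of all genes on that scale, and Ier3 above 99.7%. The order of neighbours is loose, since Atf3 differed up to 11-fold between MIC libraries and Fos 1.92-fold.

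In MICs the 10 genes tended to be lower, but none passed the test. All 10 had a log2 fold change below 0 in limma, though Atf3 was at 0.02 in DESeq2. Below 0 in limma were 54.2% of all genes and 59.2% of the genes at or above the median value, where all 10 members lay. The members' median was -0.39, beside -0.04 over all genes and -0.08 among genes at or above the median value. In bulk samples, fewer cells of a type and less RNA per cell cannot be told apart. By limma 0 of the 10 passed an adjusted p of 0.05, as did 0 of all genes (0%), and 1 of the 10, Jun, had an unadjusted p under 0.05, as did 1.44% of all genes. With the replicate block 0 of the 10 passed in limma, where 29 genes did (0.13%), 0 in edgeR, where 315 did (1.41%), and 0 in DESeq2, where 133 did (0.889%). Unadjusted, 5 of the 10 were lower in MICs with a p under 0.05 in limma with the block, namely Fos, Fosb, Fosl1, Jun and Egr1, as were 5.97% of all genes.

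Read pair by pair, the lower level in MICs was largest in replicate 1. All 10 members were lower in MICs in pair 1, 8 in pair 2 and 7 in pair 3, where 50.6%, 42.6% and 62.7% of all genes were lower. Among genes at or above the median value 56.6%, 53.4% and 65.1% were lower. The members' median difference was -0.80, -0.35 and -0.15 in pairs 1, 2 and 3, beside -0.02, 0.04 and -0.05 over all genes. Among genes at or above the median value it was -0.09, -0.04 and -0.05. Fos, Fosl1, Jun, Egr1 and Ier2 were lower in all 3 pairs, 5 of 10 where 18.8% of all genes and 28.5% of the genes at or above the median value were. No member was higher in all 3 pairs, as 12.5% of all genes were. Leaving out pair 1, 5 of the 10 were lower in both others, beside 27% of all genes. Among genes at or above the median value the share was 35.3%. The members' median log2 fold change with the block and without pair 1 was -0.27. Averaged over the 10 genes, log2(value + 1) was 11.96, 12.69 and 12.67 in MIC replicates 1, 2 and 3 (12.44 ± 0.42, SD, n = 3) and 12.68, 12.99 and 12.89 in nonMIC replicates 1, 2 and 3 (12.85 ± 0.16, SD, n = 3). MIC replicate 1 was thus the lowest library, while MIC replicates 2 and 3 were level with nonMIC replicate 1.

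**Figure D1:**
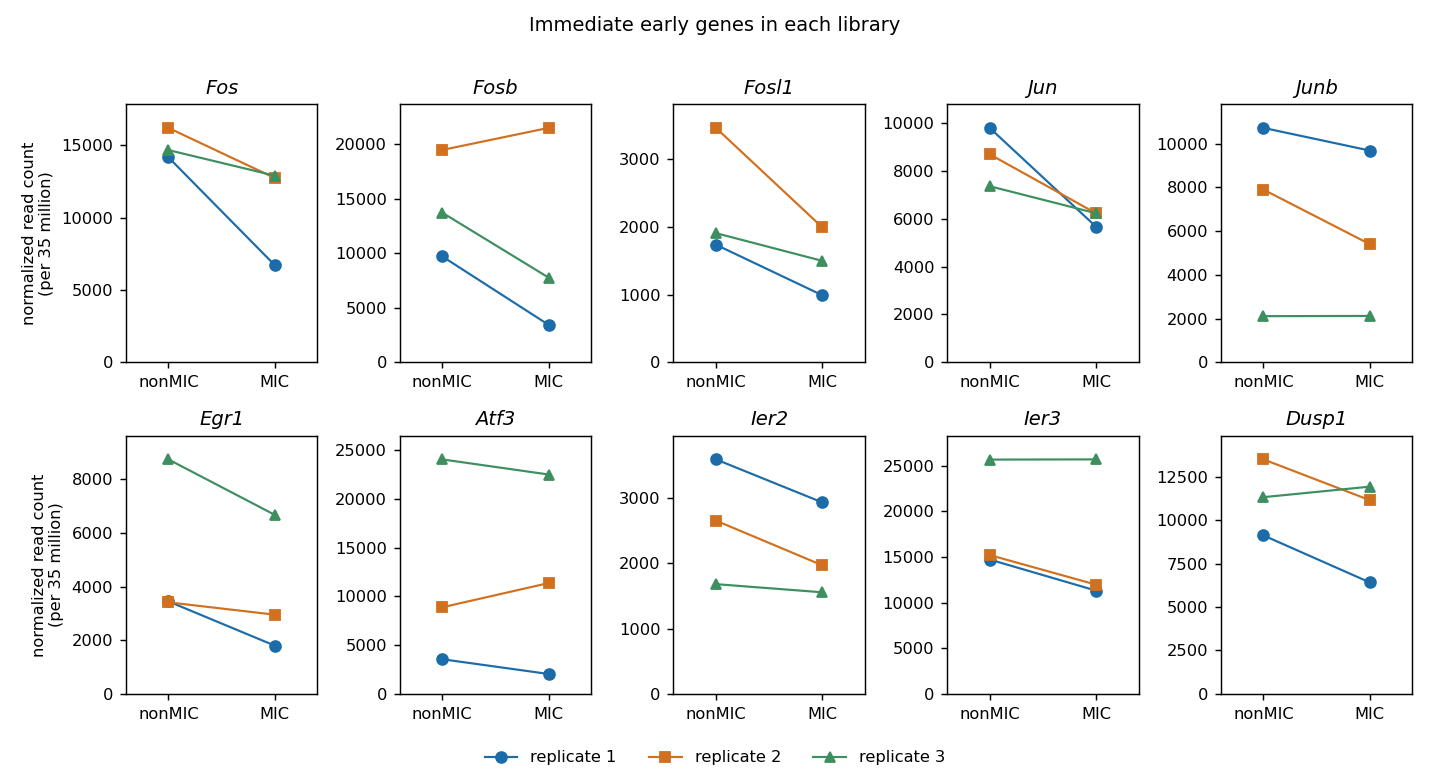
Normalized read count per 35000000 (vertical axis, from 0) of each immediate early gene in the nonMIC and MIC libraries, where each point is 1 library and a line joins libraries with the same replicate number. Fos and Jun are the genes whose MIC and nonMIC points do not overlap, and replicate 3 lies apart from the other libraries in both populations for Junb, Egr1, Atf3 and Ier3.

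Among the FOS proteins, which bind DNA only in a pair with a JUN partner, Fos gave the most even nonMIC values. In the order of replicates 1, 2 and 3, kept from here on, it was 6710, 12729 and 12893 in MICs and 14161, 16191 and 14659 in nonMICs. Every MIC value lay below every nonMIC value, and MIC replicate 1 was far below the rest. The groups also did not overlap for Jun, so 2 of 10 members were apart where 6.24% of all genes were. For Fos the pair differences were -1.08, -0.35 and -0.19, and the log2 fold change was -0.54 (SE 0.28), with an adjusted p of 1 in limma and 0.418 with the block. With 1 library left out it ran from -0.70 (without MIC replicate 3) to -0.23 (without MIC replicate 1).

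Fosb, the AP-1 subunit whose truncated form accumulates under repeated stimulation, was 3449, 21515 and 7782 in MICs and 9730, 19489 and 13744 in nonMICs. Replicate 2 was the highest library in each population, and the groups overlapped. Within pairs the difference was -1.50 and -0.82 in replicates 1 and 3 and 0.14 in replicate 2. Its log2 fold change of -0.72 (SE 0.62) had an adjusted p of 1 in limma, 0.417 with the block and 0.0599 in edgeR with the block. It rested on single libraries, at -0.09 without MIC replicate 1 and -1.41 without MIC replicate 2.

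Fosl1 encodes FRA-1, a later and more lasting FOS protein that lacks a strong activation domain. Its levels were 992, 1995 and 1500 in MICs and 1739, 3465 and 1910 in nonMICs, so that MIC replicate 2 lay above nonMIC replicates 1 and 3 although it was lower than its own pair. Pair differences were -0.81, -0.80 and -0.35, the most even among the members in pairs 1 and 2. The log2 fold change was -0.65 (SE 0.36), and the adjusted p was 1 in limma, 0.299 with the block, the smallest of the 10, and 0.0577 in edgeR with the block. Without nonMIC replicate 2 the fold change was -0.34, and without MIC replicate 2 it was -0.89.

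Jun, the AP-1 subunit that can also pair with itself, varied least between replicate numbers. It was 5660, 6222 and 6224 in MICs and 9788, 8686 and 7354 in nonMICs, with no overlap. MIC values lay within 1.1-fold of each other and nonMIC values within 1.33-fold. The pair differences were -0.79, -0.48 and -0.24, and the log2 fold change of -0.50 (SE 0.19) had a 95% interval of -0.94 to -0.06 in limma, with an adjusted p of 1 and, with the block, of 0.417. Leaving out any 1 library kept it between -0.61 and -0.41.

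Junb, a JUN protein with weaker activation than JUN, differed by replicate number and little by population. Levels were 9679, 5401 and 2124 in MICs and 10716, 7896 and 2113 in nonMICs. Replicate 1 was high and replicate 3 low in each population, and the groups overlapped almost fully. The pair differences were -0.15, -0.55 and 0.01. Its log2 fold change of -0.23 (SE 0.72) turned to 0.36 without MIC replicate 3, to 0.23 without nonMIC replicate 1 and to 0.01 without nonMIC replicate 2.

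Egr1, a direct target of serum response factor, was 1799, 2954 and 6675 in MICs and 3450, 3414 and 8744 in nonMICs. Replicate 3 was the highest in each population, and MIC replicate 3 exceeded nonMIC replicates 1 and 2. The pair differences were -0.94, -0.21 and -0.39, for a log2 fold change of -0.51 (SE 0.54) and an adjusted p of 1 in limma and 0.418 with the block. The fold change was -0.06 without nonMIC replicate 3, -0.08 without MIC replicate 1 and -1.02 without MIC replicate 3.

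Atf3 spread the most. It was 2043, 11366 and 22499 in MICs and 3559, 8879 and 24049 in nonMICs, an 11-fold range in MICs and a 6.76-fold range in nonMICs. Replicate 1 was the lowest and replicate 3 the highest in each population. Pair differences were -0.80, 0.36 and -0.10, so the direction in pair 2 was opposite. The log2 fold change of -0.18 (SE 0.96) became 0.81 without MIC replicate 1, 0.52 without nonMIC replicate 3, 0.13 with the block and without pair 1, and 0.02 in DESeq2.

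Ier2, a nuclear protein induced by serum, was 2930, 1968 and 1555 in MICs and 3589, 2652 and 1680 in nonMICs. Its pair differences of -0.29, -0.43 and -0.11 were small and of the same sign, and the order of replicate numbers, with 1 highest and 3 lowest, was the same in each population. Ier3, a stress-induced regulator of cell survival, was 11317, 11970 and 25700 in MICs and 14726, 15217 and 25677 in nonMICs. Replicate 3 stood apart from replicates 1 and 2 in each population, and the pair differences were -0.38, -0.35 and 0.00. The log2 fold changes were -0.28 (SE 0.35) for Ier2 and -0.24 (SE 0.37) for Ier3, with Ier2 at -0.02 without nonMIC replicate 1 and Ier3 at 0.02 without nonMIC replicate 3.

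Dusp1, the phosphatase that dampens ERK, JNK and p38 signaling, was 6414, 11149 and 11929 in MICs and 9122, 13498 and 11324 in nonMICs. MIC replicate 1 was the lowest library, and the other libraries of the populations overlapped. Pair differences were -0.51, -0.28 and 0.08. The log2 fold change of -0.24 (SE 0.29) had a 95% interval of -0.62 to 0.15 in limma with the block, and it was 0.05 without MIC replicate 1.

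**Figure D2:**
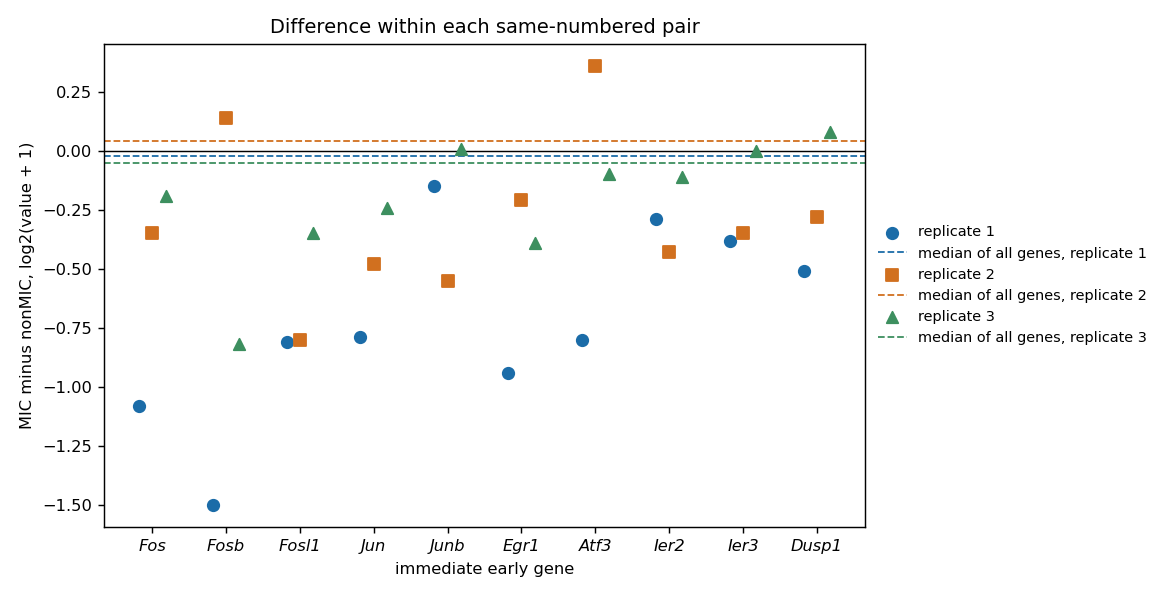
MIC minus nonMIC on the log2(value + 1) scale (vertical axis) for each immediate early gene (horizontal axis) within the pairs of replicates 1, 2 and 3, with dashed lines at the median of all genes in each pair. Replicate 1 lies below 0 for all 10 genes, and the points above 0 are Fosb and Atf3 in replicate 2 and Junb and Dusp1 in replicate 3, with Ier3 at 0.00 in replicate 3.

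For most members the replicate number set the level more than the population did. The mean of a pair ranged over 3.11 log2 units across replicate numbers for Atf3, 2.26 for Junb, 1.82 for Fosb, 1.62 for Egr1, 1.00 for Fosl1, 1.00 for Ier2, 0.99 for Ier3, 0.68 for Dusp1, 0.56 for Fos and 0.14 for Jun. Fos and Jun were the members whose largest pair difference, at -1.08 and -0.79, exceeded that range in size. The members did not follow 1 order. By the mean of a pair, Junb and Ier2 were highest in replicate 1 and lowest in replicate 3, as was Jun over its range of 0.14. Egr1, Atf3 and Ier3 were highest in replicate 3 and lowest in replicate 1. Fos, Fosb, Fosl1 and Dusp1 were highest in replicate 2 and lowest in replicate 1. Over the 6 libraries, which share 3 replicate numbers, Pearson's r of log2(value + 1) was 0.95 between Junb and Ier2, 0.96 between Egr1 and Ier3, 0.88 between Fosb and Fosl1 and 0.89 between Fos and Dusp1, but -0.91 between Junb and Atf3, given as a description with n = 6.

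Genes outside the lists also followed the average of the members. Among 10734 protein-coding genes with a mean value of at least 100, the highest Pearson's r with the mean of the 10 members over the 6 libraries was 0.998 for Ino80, 0.994 for Xpo6, 0.994 for Trak1, 0.994 for Yeats2 and 0.993 for Zfp384. Ino80, the ATPase of a chromatin remodeler, was 872, 1512 and 1569 in MICs and 1524, 1920 and 1756 in nonMICs. These genes were picked for the likeness, so it is a description of them.

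GC content and message length moved with the pair differences over all genes. Across 10874 protein-coding genes with a mean value of at least 100, the difference in pair 1 fell with the length of the longest transcript (Pearson's r -0.364 across genes, which are not independent replicates), from a median of 0.26 in the fifth with the shortest to -0.44 in the fifth with the longest. In pair 2 it fell with GC content (r -0.544), from 0.40 in the fifth with the lowest to -0.38 in the fifth with the highest. Pair 3 was flat, with r at -0.011 for GC content and 0.0361 for length. The members were rich in GC, between 51.9% for Fos and 62.6% for Junb, which is above 62.1% and 99.1% of those genes. Most were short, from Ier3, longer than 4.63% of those genes, to Jun, longer than 43.3%. The exceptions were Fosb and Egr1, longer than 55.3% and 68.1%.

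**Figure D3:**
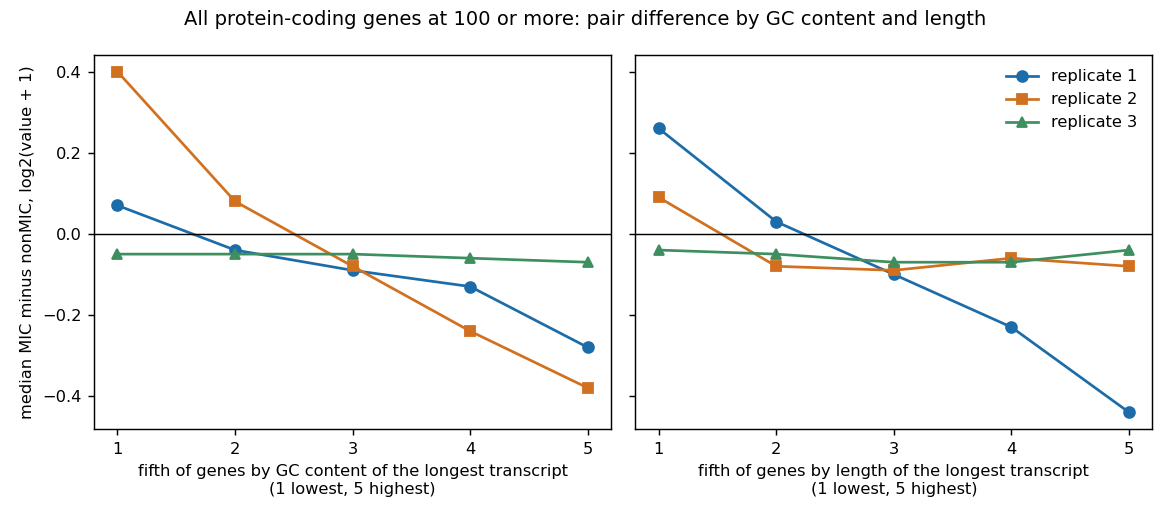
Median MIC minus nonMIC on the log2(value + 1) scale (vertical axis) of 10874 protein-coding genes, ranked into 5 equal groups by GC content (left) and length (right) of the longest transcript, 1 line for each replicate pair. Replicate 2 runs from 0.40 to -0.38 over the GC groups, replicate 1 from 0.26 to -0.44 over the length groups, and replicate 3 stays between -0.07 and -0.04.

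With that trend taken out of each pair, in a limma fit with the block chosen after the data were seen, 0 of the 10 members passed, and 60 genes did (0.271%). The members' median log2 fold change was -0.31, beside -0.12 over all genes, whose median in pair 1 shifted from -0.02 to -0.18. By pair the members' median was -0.68, -0.22 and -0.16, beside -0.18, -0.06 and -0.05 over all genes. All 10 kept a negative log2 fold change, and 5 were lower in all 3 pairs, where 25.9% of all genes were. These were Fos, Fosl1, Jun, Ier2 and Ier3, since Egr1 became higher in MICs in pair 2, at 0.19. Fos was at -0.61 (SE 0.18) and Fosl1 at -0.62, the latter with the smallest adjusted p of the 10 in limma, 0.117. Egr1 went from -0.51 to -0.26, Jun from -0.50 to -0.36, Fosb from -0.72 to -0.53 and Junb from -0.23 to -0.12. In the other direction, Ier3 went from -0.24 to -0.40 and Atf3 from -0.18 to -0.26.

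Related response genes were followed through lists compiled for the same purpose. None of their 115 genes passed an adjusted p of 0.05 by limma with or without the block. Their counts in all 3 pairs stand beside 18.8% lower and 12.5% higher over all genes, or 28.5% and 13.1% among genes at or above the median value, so that lower genes outnumber higher ones without any list. The 11 other AP-1 and small Maf factors had a median log2 fold change of -0.17, with 5 lower in MICs in all 3 pairs and 0 higher. Jund, a JUN protein that is present without stimulation, was 2243, 3471 and 850 in MICs and 4788, 5636 and 915 in nonMICs, with pair differences of -1.09, -0.70 and -0.11.

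Of 17 other immediate early transcription regulators, 8 were lower in all 3 pairs, 0 were higher, and the median was -0.31, or -0.16 with the GC and length trend removed. Klf2, a Krüppel-like factor, was 61.5, 304 and 54.8 in MICs and 165, 629 and 68.7 in nonMICs, with differences of -1.41, -1.05 and -0.32 in pairs 1, 2 and 3. It passed in edgeR with the block (adjusted p 0.0316) and in no other fit, the adjusted p being 0.417 in limma and 0.135 in DESeq2 with the block. Egr3, a relative of Egr1, had differences of -0.82, -0.27 and -0.85.

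Other lists held genes that shut the response down. Among 14 messenger RNA decay and growth brake genes 6 were lower in all 3 pairs and 0 higher (median -0.19), or 6 and 1 after quantile normalization and 3 and 1 with the GC and length trend removed, where 25.9% of all genes were lower. Zfp36, whose protein binds AU-rich messages and speeds their decay, had differences of -0.57, -0.45 and -0.32, and its relative Zfp36l2 of -1.20, -0.18 and -0.03, the value in pair 2 being 0.11 with that trend removed. The log2 fold change of Zfp36, -0.45, was 0.05 without nonMIC replicate 3. Among 9 NF-kB and cytokine feedback genes 4 were lower in all 3 pairs and 0 higher (median -0.23), among them Bcl3, a nuclear IkB protein, at -0.73, -0.26 and -0.20, and Zc3h12a, an RNase of inflammatory messages, at -0.61, -0.29 and -0.22, with pair 2 at 0.04 and 0.00 once that trend was removed. Bcl3 had a log2 fold change of -0.40, which was 0.24 without MIC replicate 2, and Zc3h12a one of -0.37, which was -0.02 without MIC replicate 2 or nonMIC replicate 3. Of 16 MAP kinase phosphatases and feedback inhibitors 4 were lower and 2 higher in all 3 pairs (median -0.17), close to the shares among genes at or above the median value, and 3 were lower and 3 higher after TMM or quantile normalization. Among those with a mean value of at least 100, Dusp8 (-1.21, -0.03 and -0.38) and Dusp7 (-0.81, -0.42 and -0.08) had the largest mean difference of 1 sign, but with the trend removed Dusp8 was at 0.42 in pair 2 and its log2 fold change went from -0.54 to -0.24. Dusp2, a nuclear phosphatase below that level and chosen after its values were seen, had positive pair differences of 1.32, 0.35 and 0.52.

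Of 13 delayed early growth factor response genes, which follow the immediate early wave, 3 were lower and 4 higher in all 3 pairs, or 3 and 3 after TMM rescaling. Their median of 0.01 was -0.04 after quantile normalization. Ccn2, a secreted matrix protein, had differences of 0.79, 0.34 and 0.58, and its log2 fold change of 0.57 was -0.08 without MIC replicate 1.

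Heat shock genes, another mark of stressed preparations, had a median of -0.05, with 4 of 15 lower and 2 higher in all 3 pairs. These counts were near the shares among genes at or above the median value, and were 2 lower and 3 higher after TMM rescaling. With the GC and length trend removed 5 were lower and 1 higher, where 25.9% of all genes were lower. Their median was then -0.17, beside -0.12 over all genes. Hspa1a, an inducible HSP70 gene, was 153, 316 and 114 in MICs and 280, 375 and 117 in nonMICs, with pair 2 at 0.13 once the GC and length trend was removed, and its near-identical copy Hspa1b was 1192, 1817 and 471 in MICs and 1417, 3121 and 504 in nonMICs. These copies share reads, so the split between them is uncertain. The fold change of Hspa1b, -0.38, was 0.17 without MIC replicate 3 and 0.25 without nonMIC replicate 2. Of 20 upstream kinases and factors 5 were lower and 2 higher in all 3 pairs (median -0.10), or 4 and 3 after TMM or quantile normalization, with Crem, a CREB relative, at 0.19, 1.22 and 0.06 and Mrtfb, a coactivator of serum response factor, at -1.06, -0.09 and -0.08. With the GC and length trend removed Crem was at -0.06 in pair 1 and Mrtfb at 0.07 in pair 2.

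Markers of other cells and of RNA quality also differed between the libraries. Of 7 basal or myoepithelial markers 4 were higher in MICs in all 3 pairs, and Krt5, Acta2 and Myh11 had adjusted p-values of 0.0121, 3.12e-05 and 6.28e-05 in limma with the block and of 1 without it, with log2 fold changes of 2.23, 2.42 and 2.58. Without pair 3 the adjusted p with the block was 0.453 for each in limma. With 1 library left out and no block, the fold changes ran from 1.0 (without MIC replicate 1) to 3.5 (without MIC replicate 2) for Krt5, and from 0.7 to 4.3 for Acta2 and 0.6 to 4.6 for Myh11 (without MIC replicate 1 and without nonMIC replicate 1). The list summed to 404281, 23691 and 71237 in MICs and 140300, 23967 and 46873 in nonMICs, with no marker at 0. The log2 ratios of these sums were 1.53, -0.02 and 0.60. In pair 2 Krt5, Acta2 and Myh11 were higher in MICs, so the other markers of the list together were lower. Acta2 had the highest mean over the 6 libraries, with 230574, 3765 and 9839 in MICs and 48582, 724 and 1581 in nonMICs. Replicate 1 dominated that mean. Of 8 fibroblast markers 4 were higher in MICs in all 3 pairs, 3 after TMM rescaling and 2 after quantile normalization. Their sums were 2156, 670 and 2005 in MICs and 1110, 739 and 585 in nonMICs, lower in MICs in pair 2. The marker with the highest mean over the 6 libraries was Col1a2, at 1450, 142 and 650 in MICs and 367, 95.1 and 102 in nonMICs. Lum and Dpt were at 0 in at least 1 library. Col1a2 had a log2 fold change of 1.74 (SE 0.89), with an adjusted p of 1 in limma and, with the block, of 0.0729 in limma, 7.89e-12 in edgeR, 2.42e-05 in DESeq2 and 0.007 in limma with the GC and length trend removed. The 5 endothelial markers summed to 51.8, 48.9 and 31.8 in MICs and 15.9, 41.2 and 44.2 in nonMICs. Kdr had the highest mean of these over the 6 libraries, and Emcn was at 0 in at least 1 library. Malat1, a nuclear RNA, was 2402, 19406 and 13994 in MICs and 6346, 9561 and 17467 in nonMICs, with differences of -1.40, 1.02 and -0.32, the signs that Fosb and Atf3 had in each pair. The part of these cell markers and of RNA quality in the members' values was not tested.

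The promoters show what some members share in sequence. RefSeq promoters on GRCm38.p6 matched 7 of the 10 members, Fos, Fosb, Jun, Junb, Atf3, Ier3 and Dusp1, and Fosl1, Egr1 and Ier2 are named only. In the 250 bases before the start, on both strands, the core of the cAMP response element, TGACG, was present in 5 of the 7 and in 17.9% of 27025 promoters, 1 per gene. The full element TGACGTCA, which holds the core on each strand, was in 1 of the 7, Dusp1, and in 1.62% of promoters. The AP-1 letters TGANTCA were in 0 of the 7 and 6.87% of promoters, and the CArG box of serum response factor in 0 of the 7 and 1.4%. The stretches around the core are given for the 5 members that hold it, with the motif in capitals, read on the strand of the gene: Fos at chr12:85473804-85473848 (+), Fosb at chr7:19310081-19310125 (−), Junb at chr8:84978830-84978874 (−), Atf3 at chr1:191183334-191183360 (−, core on the opposite strand) and Dusp1 at chr17:26508588-26508635 (−, full element).
Fos: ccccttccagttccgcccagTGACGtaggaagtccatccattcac
Fosb: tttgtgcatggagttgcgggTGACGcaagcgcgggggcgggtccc
Junb: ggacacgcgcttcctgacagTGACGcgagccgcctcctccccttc
Atf3: ggaagctattaatagcattaCGTCAgc
Dusp1: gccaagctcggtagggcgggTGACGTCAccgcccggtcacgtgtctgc
Fos and Dusp1 each hold 1 further stretch with the core, at chr12:85473741-85473785 (+) and chr17:26508639-26508683 (−). A match describes the letters in this window and is not evidence of binding. The lack of a match says nothing of sequence outside the window.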

How the data were processed

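The deposited signal was made by the authors from gene counts of stranded mRNA libraries by scaling to library size. The submitters' notes name STAR, HTSeq and GRCm38, while the study's methods name Bowtie2 and samtools, and versions and the strand setting are not given in the sources used here. The labels name the RNeasy Micro kit and the methods the Mini kit. Values divided by that of 1 read came out whole, within 0.01 of a read, for 99.97% to 100% of genes, and these recovered reads entered edgeR and DESeq2. They set counting error only, since reads were not collapsed by molecular identifier.

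Identifiers were matched to GENCODE vM21 (GRCm38), which held 22161 of 22310. limma 3.58.1 (R 4.3.3; lmFit, eBayes with trend) was fitted to log2(value + 1) over all 22310 genes in 6 libraries, without a block, with Benjamini-Hochberg adjustment at 0.05 and no filter. Libraries were paired here by the replicate numbers of the labels. Departures from the group means correlated at 0.573, 0.668 and 0.746 between same-numbered libraries and at -0.536 to -0.194 between others. The departures of a group sum to 0, so the negative values follow in part from the positive ones. Replicate 3 was also read more deeply in both populations, and what same-numbered libraries share was not tested. A fit with the replicate block is given beside the main result. Alternatives were edgeR 4.0.16 (quasi-likelihood) and DESeq2 1.42.0, other pseudocounts (0.1 and 10), genes at or above the median value alone, TMM and quantile normalization, no variance trend, and each library or pair left out. Removal of GC content and length trends with the replicate block was chosen after seeing the data. Procedures were tested on simulated data with 200 genes changed 4-fold. Of these, limma recovered 177 with 0 false calls, and 191 with 5 false calls when the block was used. Smaller changes, such as those of the members, were not simulated. Python 3.11.15, numpy 2.4.6 and pandas 2.3.3 were used.

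The members and lists were chosen with earlier results of these data known. Named besides the members were list genes passing limma with or without the block, the 2 genes per response list with the largest mean pair difference among those of 1 direction in all 3 pairs and a mean value of at least 100, the most abundant and passing markers, the gate genes, and the 5 genes most correlated with the members' mean. Not every gene covered by this rule is reported here. Fosl1, Jun, Junb and Dusp1 overlap genes on the opposite strand (Ccdc85b, Junos, Prdx2 and Ergic1), so their counts are uncertain where strand was not used.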

Additional observations from a re-analysis of the deposited data

How the results depend on the processing

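The number of members passing was 0 in the main limma fit and under all 21 alternatives, including the replicate block, edgeR, DESeq2, and each library or pair left out. The count over all genes, 0 in limma, was 29 with the replicate block, 315 in edgeR with the replicate block, 1 in DESeq2, 133 in DESeq2 with the replicate block and 60 with the replicate block and the GC and length adjustment. It was 0 to 59 when a library, or a pair in the fit with the replicate block, was left out, and 0 elsewhere. The cause was not tested. The members' median log2 fold change, -0.39, ran from -0.65 to -0.16 with a library or pair left out and moved by less than the SD between replicates, 0.34, in every alternative. The number lower in all 3 pairs was 5, and 6 after quantile normalization, where Ier3 was added. With 1 library left out, Fosb ran from -1.41 to -0.09, Egr1 from -1.02 to -0.06, Ier2 from -0.57 to -0.02, Fos from -0.70 to -0.23 and Fosl1 from -0.89 to -0.34. Of 210 recomputed member values 9 reversed their sign. For Junb these were 0.36 (without MIC replicate 3), 0.23 (without nonMIC replicate 1) and 0.01 (without nonMIC replicate 2), in a range down to -0.94. For Atf3 they were 0.81 (without MIC replicate 1), 0.52 (without nonMIC replicate 3), 0.13 (replicate block, without pair 1) and 0.02 (DESeq2), in a range down to -0.92. Ier3 reached 0.02 (without nonMIC replicate 3) from -0.62, and Dusp1 0.05 (without MIC replicate 1) from -0.40. Outside the members the sign turned for Zfp36 (-1.01 to 0.05, without nonMIC replicate 3), Bcl3 (-1.10 to 0.24, without MIC replicate 2), Ccn2 (-0.08 to 1.12, without MIC replicate 1) and Hspa1b (-1.06 to 0.25; 0.17 without MIC replicate 3, 0.25 without nonMIC replicate 2). The replicate block changed no member's call. With 3 libraries per population the 95% intervals of the members in limma were wide, for Atf3 -2.41 to 2.05. Each member had at least 920 reads in every library, so counting error was small beside that spread.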
